A study of Mus musculus with 6 samples.

Results

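The 10 genes described here encode intermediate filament proteins and nuclear lamins, and their RNA was measured by sequencing cortex from mice on postnatal day 8. The members were taken by symbol from a table of 34745 genes: *Gfap*, *Vim* and *Nes*, filaments of glia and progenitors, *Nefl*, *Nefm*, *Nefh* and *Ina*, filaments of neurons, and *Lmna*, *Lmnb1* and *Lmnb2*, filaments of the nucleus. All 10 were found once each and passed the filter on low values. The 3 Pen-2 cKO samples carried the hGFAP-Cre transgene on Pen-2 F/F, and the 3 controls had Pen-2 F/F without it, so every sample was homozygous for the floxed Pen-2 allele. Both groups were cortex of the same age, and no other agent is given. The deleted protein belongs to γ-secretase, the protease complex that cleaves Notch receptors. The transgene drives Cre recombinase from a human GFAP promoter, which is known to be active in radial glia as well as astrocytes, so neurons and oligodendrocytes born from recombined radial glia can carry the deletion. Only cKO samples have the transgene, and its effect and that of the deletion cannot be told apart. The labels do not say that each sample came from a separate animal. Each p-value therefore sets a group difference only against the scatter among these libraries, which may be technical.

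Intermediate filaments are ropes of coiled-coil proteins, each with a central rod flanked by a head and a tail. Radial glia build them from nestin and vimentin, and maturing astrocytes replace nestin with GFAP. Neurons assemble the light, medium and heavy neurofilament subunits together with α-internexin, and the heavy subunit is known to accumulate late in the maturation of axons. Lamins form the meshwork under the inner nuclear membrane. B-type lamins are made in nearly all cells, whereas lamin A/C increases as cells differentiate.

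The coding bases below encode the end of the rod, the most conserved stretch of the family. Each is 30 bases written 5′ to 3′ on the coding strand, from GENCODE M21 transcripts on mm10. Capitals mark the 13 bases that are identical in all 9 sequences shown. The stretches were located by an amino acid pattern of the rod end, so part of this identity was fixed by the search. *Lmnb1* is named only.
Gfap (chr11:102893040-102893069, minus strand): aCcTAcaGgAaatTgcTgGAgGgcGAagAa
Vim (chr2:13580204-13580233, plus strand): aCcTAcaGgAagcTgcTgGAaGgcGAggAg
Nes (chr3:87973109-87974823, plus strand, across an intron): aCaTAcaGgActcTgcTgGAgGctGAgaAc
Nefl (chr14:68086091-68086508, plus strand, across an intron): gCtTAcaGaAaacTctTgGAaGgcGAagAg
Nefm (chr14:68121363-68122828, minus strand, across an intron): gCgTAcaGgAaacTccTaGAgGggGAagAg
Nefh (chr11:4941394-4943858, minus strand, across an intron): gCtTAcaGaAagcTccTgGAaGgcGAagAg
Ina (chr19:47021950-47023356, plus strand, across an intron): gCtTAcaGgAagcTccTgGAaGgtGAagAg
Lmna (chr3:88484932-88484961, minus strand): gCcTAtcGaAagcTgcTgGAgGgcGAggAg
Lmnb2 (chr10:80904558-80904587, minus strand): gCcTAccGcAagcTgcTgGAgGgcGAggAg
On the same strand, exact runs of bases shared by the members' transcripts were short, and identity over whole transcripts was not computed. Over the 45 pairs of members, the longest run of identical bases on the same strand was 30 bases, shared by *Lmna* and *Lmnb2*, and the shortest of these longest runs was 12 bases. *Nefl* and *Nefm* differ from the other pairs in their position. The range of *Nefl* (chromosome 14, 68083863 to 68089095, plus strand) lies within that of *Nefm* (68082590 to 68124846, minus strand). The last exon of the transcript Nefm-202 overlaps the first exon of *Nefl* over 1108 bases (68083863 to 68084970), which is 32.8% of the *Nefl* transcript and 30.1% of Nefm-202. Whether counting used strand is not given in the sources used here, so fragments from that overlap cannot be told apart between the genes. *Ina* overlaps an exon of *Nt5c2* on the opposite strand over 456 bases, 14.1% of its transcript.

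Values are FPKM, fragments scaled to transcript length and to sequencing depth, so levels can be compared between genes. From the step that 1 fragment makes, depth was put at 25100000 to 26800000 fragments in cKO and 20300000 to 24900000 in control libraries. At that depth *Nefh*, the least abundant of the 3 single-transcript members, had an implied 389, 442 and 463 fragments in cKO and 259, 264 and 441 in control libraries, with a counting error of 4.65% to 6.21% each. *Psenen*, which encodes PEN-2, had 3.56 to 4.03 FPKM in cKO and 6.35 to 7.32 FPKM in control libraries (log2 fold change -0.82, SE 0.09, limma, adjusted p = 0.00441). Across 14147 tested genes limma called 783 (5.53%) at an adjusted p under 0.05, 519 higher (3.67%) and 264 lower (1.87%) in cKO cortex, so that 66.3% of calls were higher. That split depended on scaling: it was 312 higher and 346 lower with median-ratio scaling (47.4% higher), 319 and 339 (48.5%) under upper-quartile scaling, 909 and 244 (78.8%) when library sums were made equal, and 314 and 307 without cKO replicate 3 (50.6%). The markers of cell types varied with the groups. Of 12 astrocyte markers 9 fell, of 8 oligodendrocyte precursor markers 6 rose, of 10 oligodendrocyte markers 8 rose, and of 14 proliferation markers 11 rose. Of 12 neuron markers 1 rose, and their summed level was 559 to 675 FPKM in cKO and 604 to 706 FPKM in control libraries. Of 5 blood cell markers none passed (limma; 0 at an unadjusted p under 0.05), and they summed to 110 to 171 FPKM in cKO and 115 to 219 FPKM in control libraries. No listed marker was at 0 in every library.

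None of the 10 members passed the test across all genes (limma, adjusted p under 0.05), against 5.53% of all tested genes. At an unadjusted p under 0.05 there were 3, *Nes*, *Nefm* and *Lmnb1*, beside 22.9% of all tested genes. These were also the 3 members whose libraries did not overlap between the groups, beside 29.7% of all tested genes in either direction. *Nes* and *Lmnb1* were higher in every cKO library than in any control library, as were 21.5% of tested genes, and *Nefm* was lower in every one, as were 8.17%. The median log2 difference of the members was 0.13, and that of all tested genes was 0.07. The members' shares are therefore near the background, and the values below are a description of each gene.

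**Figure D1:**
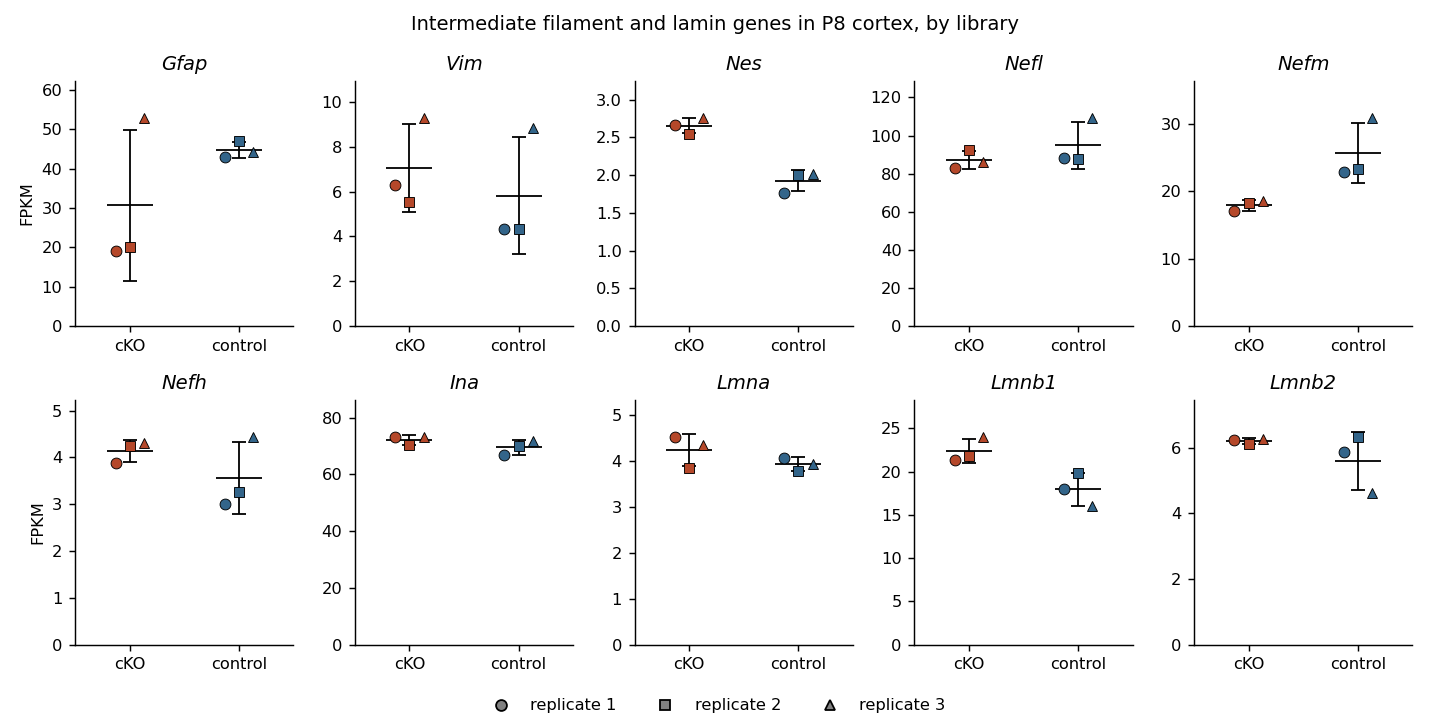
FPKM of each of the 10 genes in the 3 cKO (left) and 3 control (right) libraries; symbols mark the replicate numbers, horizontal lines the group means and bars ± 1 SD. The cKO libraries lie above all control libraries in *Nes* and *Lmnb1* and below them in *Nefm*, and cKO replicate 3 stands apart in *Gfap* at 52.8 FPKM.

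*Gfap* (ENSMUSG00000020932, chromosome 11, 102887336 to 102900912), the filament of astrocytes and the endogenous counterpart of the gene whose human promoter drives Cre, was split among the cKO libraries. It was 19.1, 20.2 and 52.8 FPKM in cKO replicates 1, 2 and 3, against 43.1, 47.1 and 44.2 FPKM in control replicates 1, 2 and 3. A pair of cKO libraries lay below every control library and the other lay above every one, so the groups overlap. The mean was 30.7 ± 19.1 FPKM in cKO and 44.8 ± 2.04 FPKM in control cortex (SD, n = 3 each), a coefficient of variation of 62.4% in cKO and 4.54% in control libraries. The log2 fold change was -0.71 (95% interval -1.63 to 0.21, limma, adjusted p = 0.330). Without cKO replicate 3 it was -1.18 (adjusted p = 0.000462), with 4.47% of all genes called, while without the other libraries in turn the adjusted p lay between 0.394 and 0.623. No difference in *Gfap* was called with all libraries in the fit. In bulk tissue, the number of astrocytes and the *Gfap* RNA per astrocyte cannot be told apart.

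Most marker sums were, like *Gfap*, highest of the cKO libraries in cKO replicate 3. The summed level of the 12 astrocyte markers was 114, 116 and 177 FPKM in cKO libraries, against 337, 396 and 433 FPKM in control libraries, so that this library was highest of its group and still below every control library. Of 12 reactive astrocyte markers, 6 could be tested and 1 rose. The 12 summed to 17.4, 17.6 and 21.3 FPKM in cKO and 10.3, 10.3 and 11.4 FPKM in control libraries. *S100a6*, the 1 that rose, was 10.7, 11.4 and 9.53 FPKM in cKO and 3.98, 4.22 and 4.6 FPKM in control libraries. It was thus lowest in cKO replicate 3 of the cKO libraries. Of the others tested, *Serpina3n*, *Hspb1* and *Cp* had positive log2 differences (0.25, 0.66 and 0.82), and *Cd44* and *Emp1* negative ones (-0.13 and -0.33). Microglia markers summed to 112, 124 and 187 FPKM in cKO, against 77.7, 87.0 and 100 FPKM in control libraries, and none of the 10 passed the test (limma; 6 had an unadjusted p under 0.05). Meningeal fibroblast markers, of which 3 of 10 rose, summed to 159, 99.1 and 267 FPKM in cKO and 122, 102 and 133 FPKM in control libraries. Choroid plexus and ependymal markers, of which none of 7 tested passed (limma; 1 at an unadjusted p under 0.05), summed to 332, 190 and 898 FPKM in cKO and 42.5, 112 and 189 FPKM in control libraries. *Ttr*, the choroid plexus transthyretin gene, made up most of that sum, at 324, 182 and 877 FPKM in cKO and 33.1, 104 and 178 FPKM in control libraries. Of the other 6 genes tested, *Foxj1*, *Rsph1* and *Clic6* had positive log2 differences (0.51, 0.30 and 0.72), and *Enkur*, *Ccdc153* and *Tmem212* had negative ones (-0.09, -0.68 and -1.11). The pattern was not particular to these lists. Oligodendrocyte, radial glia, endothelial, mural, proliferation and blood cell sums were also highest in cKO replicate 3, at 191, 133, 128, 74, 67.8 and 171 FPKM. The neuron sum was lowest there, at 559 FPKM, and the oligodendrocyte precursor sum was highest in cKO replicate 2, at 332 FPKM. The part of any of these cells in the *Gfap* value of cKO replicate 3 was not tested.

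*Vim* (ENSMUSG00000026728, chromosome 2, 13573927 to 13582826), the filament of radial glia, immature astrocytes, vessels and fibroblasts, was 6.30, 5.55 and 9.27 FPKM in cKO replicates 1, 2 and 3, against 4.31, 4.34 and 8.82 FPKM in control replicates 1, 2 and 3. It was highest in replicate 3 of both groups, and control replicate 3 lay above 2 of the 3 cKO libraries. The mean was 7.04 ± 1.97 FPKM in cKO and 5.83 ± 2.60 FPKM in control cortex, and the log2 fold change was 0.32 (95% interval -0.43 to 1.07, limma, adjusted p = 0.609). Leaving out control replicate 3 gave the largest difference, 0.66 (adjusted p = 0.133), and leaving out cKO replicate 3 the smallest, 0.10. In control replicate 3 the summed meningeal, microglia and choroid plexus and ependymal markers were also the highest of the control group. They were 133, 100 and 189 FPKM, and *Ttr* made up 178 FPKM of the last and *Ptgds* 99.3 FPKM of the first. The astrocyte, neuron, oligodendrocyte and blood cell sums were highest there too, at 433, 706, 45.1 and 219 FPKM. The radial glia and mural sums were lowest there, at 330 and 55 FPKM. The part of these cells in the *Vim* value was not tested.

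*Nes* (ENSMUSG00000004891, chromosome 3, 87971078 to 87980451), the filament of neural progenitors that is also made by vessel cells, was the least abundant member. Its level was 2.66, 2.55 and 2.75 FPKM in cKO libraries, against 1.76, 2.00 and 2.01 FPKM in control libraries. Every cKO library was above every control library, and the spread within each group was small (SD 0.1 FPKM in cKO and 0.139 FPKM in control). The log2 fold change was 0.45 (SE 0.11, 95% interval 0.19 to 0.71, limma, adjusted p = 0.0635), 1.36-fold on that scale, just short of the threshold. It passed in 2 of 16 alternative fits, with equal sums (adjusted p = 0.0370) and with no mean-variance trend (0.0398), while the other 14 ran up to 0.186. The radial glia and progenitor markers went the other way, with 4 of 8 lower and 1 higher, and summed to 103 to 133 FPKM in cKO and 330 to 334 FPKM in control libraries. Endothelial markers summed to 102 to 128 FPKM in cKO and 88.5 to 100 FPKM in control libraries (1 of 10 rose), and mural markers to 71.6 to 74.0 FPKM in cKO and 55.0 to 61.4 FPKM in control libraries (2 of 9 rose). The part of those cells in *Nes* was not tested.

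**Figure D2:**
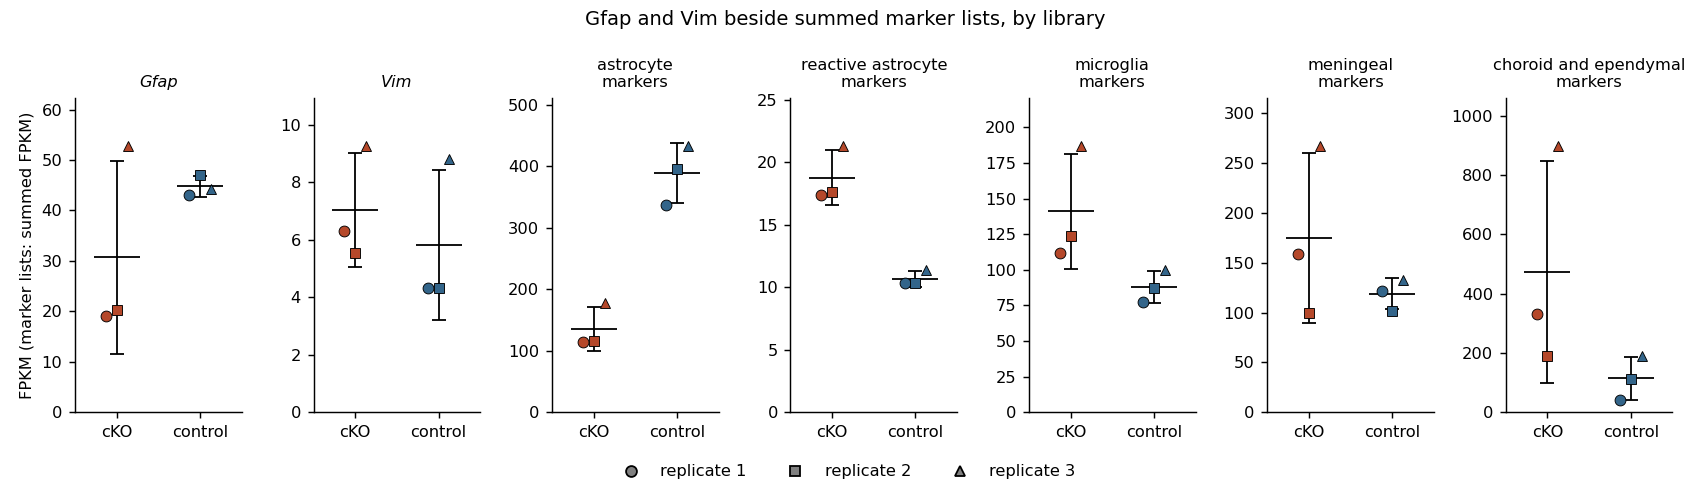
FPKM of *Gfap* and *Vim* and summed FPKM of 5 marker lists in the cKO (left) and control (right) libraries; symbols mark the replicate numbers, horizontal lines the means and bars ± 1 SD. In cKO replicate 3 (triangles) both genes and all 5 sums are the highest of the group, and its astrocyte marker sum, 177 FPKM, is below the control libraries. Most marker sums that are not drawn were also highest there, but the neuron sum was lowest.

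Summed over the class, *Gfap*, *Vim* and *Nes* reached 28.1, 28.3 and 64.8 FPKM in cKO libraries, against 49.2, 53.4 and 55.1 FPKM in control libraries. The makeup of that sum varied with the *Gfap* level. *Gfap* made up 68.1%, 71.4% and 81.5% of it in cKO, against 87.7%, 88.1% and 80.3% in control libraries, so the shares overlap. *Nes* made up 9.48%, 9% and 4.24% of it in cKO, against 3.58%, 3.74% and 3.64% in control libraries, which do not overlap.

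Of the neuronal filaments, *Nefl* and *Ina* were the most abundant of the 10 genes in both groups, and *Nefh* was among the least abundant. *Nefl* (ENSMUSG00000022055), the light subunit that every neurofilament needs, was 82.8, 92.3 and 86.2 FPKM in cKO libraries, against 88.1, 87.5 and 109 FPKM in control libraries. The groups overlap, control replicate 3 was highest, and the log2 fold change was -0.12 (95% interval -0.34 to 0.10, limma, adjusted p = 0.510). *Ina* (ENSMUSG00000034336, chromosome 19, 47014698 to 47025327), which encodes α-internexin, the neurofilament partner that is expressed early in development, was 73.2, 70.2 and 73.1 FPKM in cKO libraries, against 66.7, 70.1 and 71.6 FPKM in control libraries. It had the narrowest interval of the members (log2 fold change 0.06, -0.06 to 0.17, limma, adjusted p = 0.563), and its sign turned with median-ratio scaling (-0.02) and upper-quartile scaling (-0.01).

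*Nefm* (ENSMUSG00000022054), the medium subunit, whose long tail is phosphorylated in axons, was 17.0, 18.2 and 18.6 FPKM in cKO libraries, against 22.9, 23.3 and 30.8 FPKM in control libraries. All cKO libraries were below all control libraries, and the mean was 17.9 ± 0.809 FPKM in cKO and 25.6 ± 4.44 FPKM in control cortex (SD, n = 3 each). The log2 fold change was -0.50 (SE 0.12, 95% interval -0.77 to -0.23, limma, adjusted p = 0.0525), 0.707 times the control level on that scale. It passed in 4 of 16 alternative fits: with a filter at 1 FPKM (adjusted p = 0.0491), upper-quartile scaling (0.0455), library sums made equal (0.0450) and without control replicate 3 (log2 -0.36, 0.0304). In the other 12 the adjusted p reached up to 0.156. In the authors' deposited table *Nefm* has a p-value of 0.0164 and a q-value of 0.00246 from a test that is not named, with no up or down call. In the authors' deposited table *Nes* has a p-value of 0.000523 and a q-value of 0.0776, and *Lmnb1* has 0.0148 and 0.151. For *Vim* the authors' deposited table gives a p-value of 0.658 and a q-value of 0.177. For *Nefm* and *Vim* the q-value is below the p-value, and some entries of the p-value column are division errors, so how these columns relate, and what a q-value of 0.00246 measures, is not known.

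*Nefh* (ENSMUSG00000020396, chromosome 11, 4938754 to 4948064), the heavy subunit of mature, large axons, was 3.88, 4.24 and 4.32 FPKM in cKO libraries, against 3, 3.26 and 4.44 FPKM in control libraries. Control replicate 3 was above every cKO library and the other control libraries were below them. The log2 fold change was 0.23 (95% interval -0.13 to 0.59, limma, adjusted p = 0.420), and without control replicate 3 it was 0.39 (adjusted p = 0.0769).

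**Figure D3:**
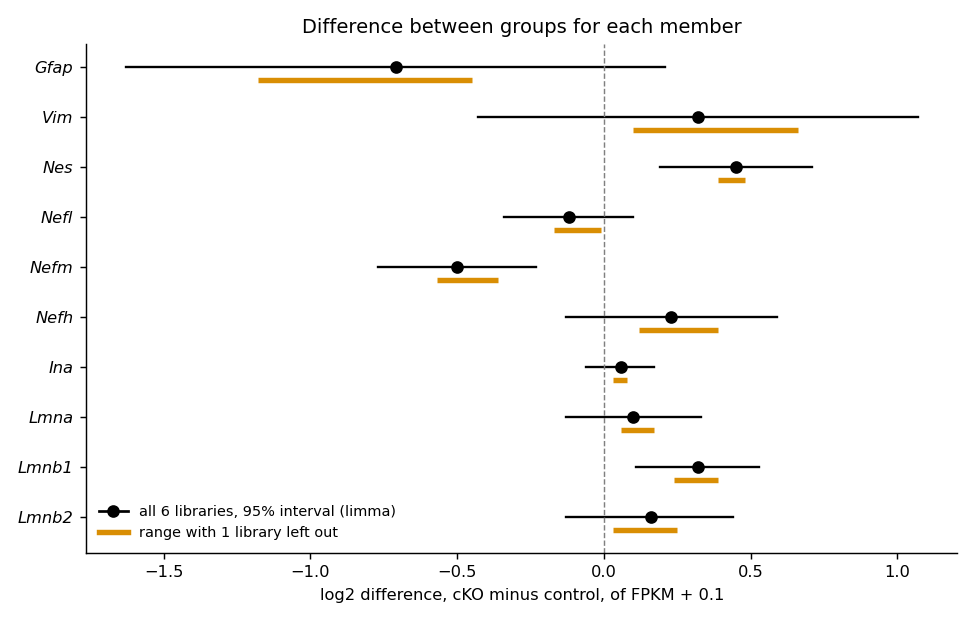
Log2 difference (cKO minus control) of FPKM + 0.1 for each gene on the horizontal axis; points and black lines are the limma estimate and its 95% interval from all 6 libraries, and orange lines the range with 1 library left out. The intervals of *Nes* (0.19 to 0.71), *Nefm* (-0.77 to -0.23) and *Lmnb1* (0.11 to 0.53) lie to one side of 0, and *Gfap* ranges from -1.18 to -0.45 when 1 library is left out.

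Ratios within a library do not depend on its scaling. Those given here were chosen after the members' values were seen and are given without a test. Of 9 ratios between members computed, 3 were higher and 2 lower in all cKO than in all control libraries, and 4 overlapped. Of the 5 that did not overlap, 3 contain *Nefm*, which does not overlap by itself, as 29.7% of single genes do not. Another, *Lmnb1* over the sum of *Lmna* and *Lmnb2*, contains *Lmnb1*, which does not overlap by itself either. It was 1.98, 2.19 and 2.26 in cKO libraries, against 1.82, 1.96 and 1.88 in control libraries. The share among ratios of other genes was not computed. *Nefm* over *Nefl* was 0.206, 0.197 and 0.215 in cKO libraries, against 0.260, 0.266 and 0.282 in control libraries. These genes share exon bases on opposite strands and whether counting used strand is not given, so fragments of the overlap may enter either value. *Nefm* over *Ina* was 0.233, 0.259 and 0.254 in cKO libraries, against 0.344, 0.331 and 0.430 in control libraries. *Nefh* over *Nefm* was 0.228, 0.233 and 0.233 in cKO libraries (mean 0.231 ± 0.00298), against 0.131, 0.140 and 0.144 in control libraries (mean 0.139 ± 0.00687). *Nefh* over *Nefl* was 0.0468, 0.0459 and 0.0501 in cKO libraries, against 0.0340, 0.0373 and 0.0406 in control libraries. The *Nefh* ratios were higher, and the *Nefm* ratios to *Nefl* and *Ina* lower, in every cKO library than in any control library. *Ina* over *Nefl* overlapped, at 0.883, 0.761 and 0.848 in cKO libraries and 0.757, 0.801 and 0.656 in control libraries. The class sum was 177, 185 and 182 FPKM in cKO libraries, against 181, 184 and 216 FPKM in control libraries, and *Nefm* made up 9.62% to 10.2% of it in cKO and 12.6% to 14.2% in control libraries.

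**Figure D4:**
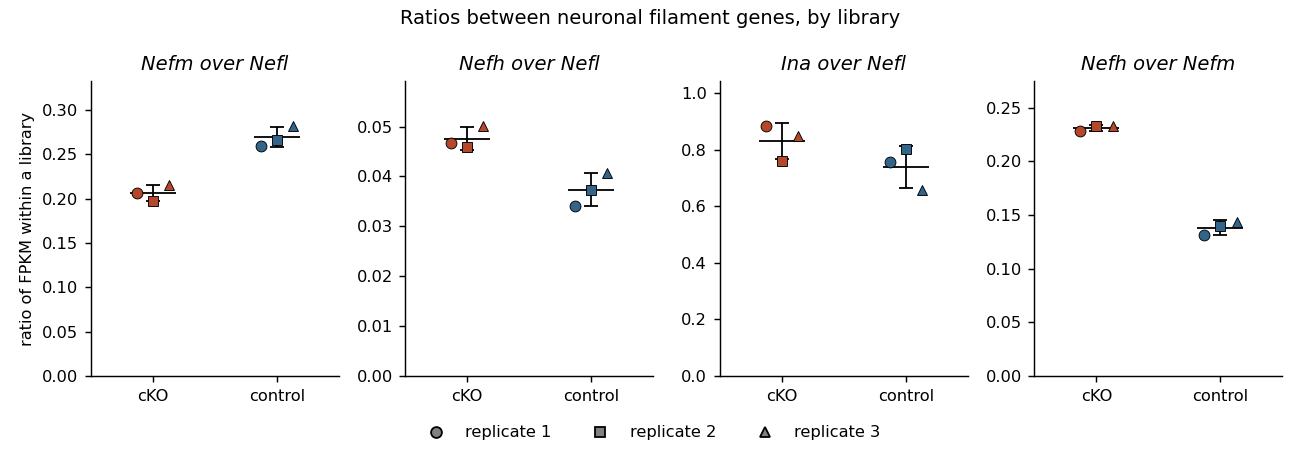
Ratio of FPKM between neuronal filament genes within each library (vertical axes from 0), cKO on the left and control on the right; symbols mark the replicate numbers, lines the means and bars ± 1 SD. *Nefh* over *Nefm* lies between 0.228 and 0.233 in cKO and between 0.131 and 0.144 in control libraries, while *Ina* over *Nefl* overlaps.

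Among the lamins, *Lmnb1* (ENSMUSG00000024590, chromosome 18, 56707813 to 56753424), a B-type lamin abundant in progenitors and dividing cells, was 21.3, 21.8 and 24.0 FPKM in cKO libraries, against 18, 19.8 and 16.0 FPKM in control libraries. Every cKO library was above every control library. The mean was 22.3 ± 1.41 FPKM in cKO and 18 ± 1.86 FPKM in control cortex (SD, n = 3 each), a log2 fold change of 0.32 (SE 0.09, 95% interval 0.11 to 0.53, limma, adjusted p = 0.0871), and it passed in none of 16 alternative fits (adjusted p 0.0506 to 0.192). Proliferation markers summed to 63.0, 66.1 and 67.8 FPKM in cKO libraries, against 35.6, 39.8 and 40.0 FPKM in control libraries, and 7 to 10 of the 14 rose when 1 library was left out. Their part in the *Lmnb1* level was not tested.

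*Lmnb2* (ENSMUSG00000062075, chromosome 10, 80901203 to 80918245), the other B-type lamin, was 6.24, 6.11 and 6.26 FPKM in cKO libraries, against 5.86, 6.33 and 4.62 FPKM in control libraries. Control replicate 2 was above all cKO libraries, and the log2 fold change was 0.16 (95% interval -0.13 to 0.44, limma, adjusted p = 0.499). *Lmna* (ENSMUSG00000028063, chromosome 3, 88480147 to 88509956), whose transcripts encode lamins A and C together, was 4.52, 3.84 and 4.35 FPKM in cKO libraries, against 4.07, 3.78 and 3.93 FPKM in control libraries. The groups overlap, with a log2 fold change of 0.10 (95% interval -0.13 to 0.33, limma, adjusted p = 0.591). The lamin sum was 32.1, 31.7 and 34.6 FPKM in cKO libraries, against 28.0, 29.9 and 24.6 FPKM in control libraries. *Lmnb1* supplied 66.4% to 69.3% of it in cKO and 64.5% to 66.2% in control libraries.

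Ordered by mean level, *Nefl* and *Ina* came first and second in both groups and did not overlap with their neighbours. In cKO cortex *Gfap* was next, but its libraries overlapped those of *Lmnb1* at 22.3 FPKM, which was followed by *Nefm* at 17.9 FPKM. In control cortex *Gfap* was also next, without overlap, and *Nefm* at 25.6 FPKM stood above *Lmnb1* at 18 FPKM. *Vim* and *Lmnb2* overlapped in both groups, as did *Lmna* and *Nefh*, and *Nes* was lowest in both.

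Other genes of the filament system were read from lists that do not hold the members. Of 17 further intermediate filament genes, 10 could be tested and 1 rose (background 3.67% higher), with a median log2 difference of 0.00 beside 0.07 for all tested genes. *Bfsp2*, which encodes a filament protein known from the lens, was 4.53, 6.30 and 7.78 FPKM in cKO libraries, against 0.721, 0.411 and 0.920 FPKM in control libraries (log2 fold change 3.03, SE 0.29, limma, adjusted p = 0.00223). It passed without each library in turn (adjusted p up to 0.0163). The oligodendrocyte markers summed to 122, 162 and 191 FPKM in cKO libraries, against 28.4, 29.8 and 45.1 FPKM in control libraries, and their part in *Bfsp2* was not tested. None of 12 cytolinkers and filament partners passed (limma; 2 had an unadjusted p under 0.05; median log2 difference 0.06). The most abundant were *Trim32*, a ubiquitin ligase, at 28.0 ± 0.562 FPKM in cKO and 28.5 ± 0.675 FPKM in control cortex, and *Cryab*, a small heat shock protein that binds GFAP, at 26.2 ± 6.93 FPKM in cKO and 25.3 ± 3.52 FPKM in control cortex.

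Of 20 filament kinases and phosphatases, 4 rose and none fell (median log2 difference 0.10). Among all tested genes 3.67% were higher and 1.87% lower, which is the background for the lists below as well. *Aurkb* and *Plk1*, mitotic kinases that phosphorylate vimentin, had log2 fold changes of 0.88 and 0.89 (adjusted p = 0.0203 and 0.0370), *Cdk1*, the mitotic kinase that phosphorylates lamins, one of 0.82 (0.0334), and *Prkca*, a protein kinase C, one of 0.38 (0.0489, limma). Of the 14 proliferation markers 11 rose, with a median log2 difference of 0.96, and their part in *Aurkb*, *Plk1* and *Cdk1* was not tested. With 1 library left out 0 to 3 of the 20 kinases and phosphatases rose, and none did when control replicate 1, control replicate 2 or cKO replicate 1 was missing. When cKO replicate 2 was left out 1 rose, as when cKO replicate 3 was. Of 19 lamin partners at the nuclear envelope, *Tmpo* alone rose (median of the list 0.10 on the log2 scale). It encodes the lamina-associated polypeptides of LAP2 and was 9.74, 9.64 and 11.6 FPKM in cKO libraries, against 6.16, 5.61 and 6.43 FPKM in control libraries (log2 fold change 0.76, SE 0.10, limma, adjusted p = 0.00771), and it passed without each library in turn (adjusted p up to 0.0431). Of 6 lamin processing genes (median 0.11), *Fnta*, the α subunit of the farnesyltransferase that lipidates lamins, rose (35.0 ± 3.34 FPKM in cKO and 25.5 ± 2.06 FPKM in control cortex, log2 0.45, adjusted p = 0.0325). *Fnta* passed without cKO replicate 1 but in no other fit with 1 library left out, nor with median-ratio scaling.

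Of 19 axonal tubulins and microtubule proteins, *Tubb3*, the neuronal β-tubulin, fell (median of the list -0.03), at 1191, 1105 and 1126 FPKM in cKO libraries, against 1415, 1439 and 1358 FPKM in control libraries (log2 fold change -0.30, SE 0.05, limma, adjusted p = 0.0162). That call ended when control replicate 1, control replicate 2 or cKO replicate 2 was left out (adjusted p up to 0.0761), and 5 of the 19 fell with median-ratio scaling. Of 7 genes of interneuron classes tested (median 0.20), *Sst*, a neuropeptide, and *Tac1*, the precursor of substance P, rose, with log2 fold changes of 0.62 and 0.66 (limma, adjusted p = 0.00872 and 0.0492). *Tac1* passed without control replicate 3 but not when any other library was left out, whereas *Sst* passed in all 6 such fits.

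The genes most alike to 4 of the members over the 6 libraries were ranked by Pearson's r of log2(FPKM + 0.1) among genes averaging 5 FPKM or more. With 6 points shared by all genes, this is a description of these libraries only. *Gfap* was most like *Fkbp9*, *Rsl24d1*, *Gm5900* and *Adgrg1* (r = 0.987 to 0.998). *Vim* was most like *Pdk2*, *Ssbp3*, *Uvrag* and *Spock2* (0.977 to 0.996). *Nefh* was most like *Bckdhb*, *Smpd1*, *Atp5d* and *Ndufb11* (0.984 to 0.994), and *Lmnb1* was most like *Rad21*, *Nap1l1*, *Rpl3* and *Tab2* (0.991 to 0.994). *Fkbp9* was 15.2, 15.4 and 19.1 FPKM in cKO libraries, against 18.1, 18.8 and 18.4 FPKM in control libraries, the same order of high and low cKO libraries as *Gfap*.

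The group values in the authors' deposited table did not follow the 3 libraries for *Gfap* and *Vim*. The authors' deposited table gives *Gfap* 95.1 FPKM in cKO and 43.2 FPKM in control, so that cKO is higher there, whereas 52.8 FPKM is the highest of the 3 cKO libraries. For *Vim* the authors' deposited table gives 14.8 FPKM in cKO and 6.26 FPKM in control, with 9.27 FPKM the highest cKO library. For the other 8 members the authors' deposited cKO value was 0.931 to 1.09 times the mean of the 3 cKO libraries. How the group values were made is not given in the sources used here, and they were not used in any comparison above.

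**Figure D5:**
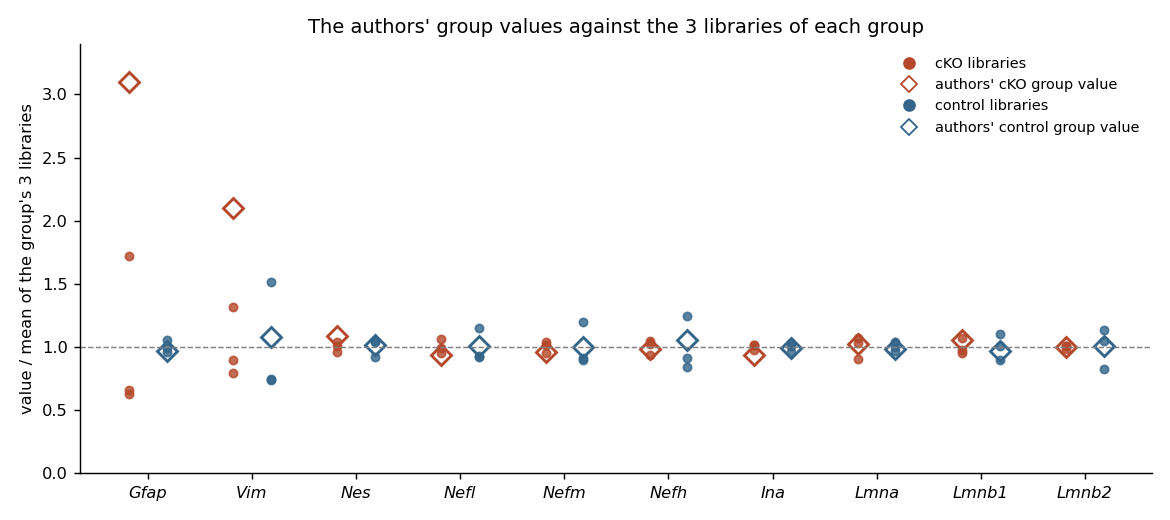
Each library (filled points) and the authors' deposited group value (open diamonds) divided by the mean of that group's 3 libraries, cKO left of control for each gene. The cKO group value is 3.10 times the mean of the cKO libraries for *Gfap* and 2.10 times for *Vim*, and close to 1 for the other genes.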

How the data were processed

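The labels' protocols name total RNA and a VAHTS Universal V6 library kit. The submitters' processing notes name mm10 as the genome build; aligner, counting program and annotation were not given in the sources used here. FPKM values, per the file headers, are what the authors deposited, in a table named for raw counts; the 6 per-library tables hold identical values. Depth was estimated from single-transcript genes, where 93.7% to 94.7% of values up to 100 fragments came within 0.05 fragments of a whole number; counts of other genes were not recovered, so no count test was run. Symbols of 27 genes turned into dates were restored by gene ID.

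The test was limma 3.58.1 (R 4.3.3), with mean-variance trend and robust variance, on log2(FPKM + 0.1) for genes of at least 0.5 FPKM in at least 3 libraries, group as the only term, and Benjamini-Hochberg adjustment over all tested genes; a fold change on this scale understates that of low genes. In simulated data with normal scatter of the fitted size, the test recovered 50.7% of 1.5-fold and 98.5% of 4-fold changes. That simulation held no outlying library. Intervals are 95%. Alternatives changed the pseudocount (0.01, 1), filter (none, 1 FPKM), scaling, variance model, threshold (0.1), replicate block and each library. The members and the 20 other lists were chosen with earlier results of these data known. The text names all members, of each list that holds no cell type markers up to 5 called genes by smallest p or else the 2 most abundant, and the 4 genes most alike to each of *Gfap*, *Vim*, *Nefh* and *Lmnb1*. Of *Itgam*, listed under 2 gene IDs, the more abundant was used. P-values and q-values in the authors' deposited table, for which no test is stated, were only copied. Tables were handled with pandas 2.3.3, NumPy 2.4.6 and SciPy 1.17.1, and figures drawn with matplotlib 3.10.9.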

Additional observations from a re-analysis of the deposited data

Results flagged for a closer look

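A signal appeared in a column that no comparison used. In the authors' deposited table the cKO group value lies above all 3 cKO libraries, and above the authors' control value, for *Gfap* (95.1 FPKM, against 43.2 FPKM in control), *Vim* (14.8 FPKM, against 6.26 FPKM in control) and *Nes* (2.89 FPKM, against 1.95 FPKM in control). It lies below all 3 cKO libraries for *Nefl* (81.6 FPKM) and *Ina* (67.2 FPKM), so 5 of the 10 members are outside the range of their libraries in cKO and 0 in control. Among genes that averaged 1 FPKM or more in the group, the value lay outside the range of the 3 libraries, by more than 0.1%, in 31.9% of 12463 genes in cKO and 8.09% of 12196 genes in control. The ratio of the group value to the mean of the 3 libraries was never below 0.75 in either group and reached 37.2 in cKO and 6.60 in control.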

How the results depend on the processing

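The members' directions held in every alternative except for *Ina* (log2 -0.02 with median-ratio scaling and -0.01 with upper-quartile scaling). In the fit as reported no member was called. With 1 setting changed, 1 was called with a filter at 1 FPKM (*Nefm*), 1 with upper-quartile scaling (*Nefm*), 2 with equal sums (*Nefm*, *Nes*), 1 with no mean-variance trend (*Nes*) and 3 at an adjusted p under 0.1 (*Nes*, *Nefm*, *Lmnb1*). With 1 library left out 0 to 1 members were called (*Nefm* without control replicate 3, *Gfap* without cKO replicate 3). Over all genes the 783 calls became 499 with no filter on low values, 1519 at an adjusted p under 0.1 and 210 to 813 with 1 library left out: 300 and 210 without control replicates 1 and 2, and 315 and 302 without cKO replicates 1 and 2. The ratio of mean summed FPKM, cKO over control, was 0.769 for glial, 0.937 for neuronal and 1.19 for lamin genes. With the scaling changed or 1 library left out, the glial ratio ran from 0.536 (without cKO replicate 3) to 0.886 (without cKO replicate 1). The neuronal ratio ran from 0.89 to 0.994 and the lamin ratio from 1.13 to 1.25.

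The titles number the libraries 1 to 3 in each group, and the labels do not say whether same-numbered libraries were paired. The correlations of their deviations from the group means were 0.0606, 0.0116 and 0.1. Those of differently numbered libraries were -0.0905 to 0.0562. With 3 libraries a group, these values cannot decide whether the libraries were paired. With the replicate block 456 genes and 0 members were called. The cause of these changes was not tested. With 3 libraries a group, differences of the size seen in *Nes*, *Nefm* and *Lmnb1* exceeded the half-width of their unadjusted 95% intervals and still missed the adjusted threshold.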
